A study of Homo sapiens with 12 samples.

Results

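HaCaT is an established keratinocyte line from human skin, and its response to cerium oxide (CeO2) nanoparticles was measured by RNA-seq in 4 derivatives, each carrying a short hairpin RNA. Of the 12 libraries of the series, the 8 labelled as CeO2 or untreated were compared, 4 against 4 and paired by hairpin. The CeO2 groups received 25 µg/mL of nanoparticles for 24 h, and the untreated groups received no agent. The other 4 libraries, exposed to 100 µM H2O2 for 24 h, appear here only as levels beside the comparison. The shControl derivative carries a control hairpin and is labelled wild type. The shMLL1 derivative is a knockdown of MLL1 (gene KMT2A), which methylates histone H3 at lysine 4. The shUTX derivative is a knockdown of UTX (gene KDM6A), which removes methyl groups from lysine 27 of the same histone, and the shNRF2 derivative is a knockdown of NRF2 (gene NFE2L2), an activator of antioxidant genes. Every combination of hairpin and treatment had 1 library, so differences between derivatives have no replicate check. No label says whether a derivative is a clone or a pool, or whether its libraries come from separate cultures. The p-values therefore measure only the spread between these libraries, which may be technical.

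Total counts per library ran from 5388334 to 7670446 over 61498 entries. Levels are given in CPM, counts scaled to a common library size with TMM, and they do not compare genes of different length. Entry names and reads match only in part of the table, in 5 stretches of GRCh38 (chr5:218241-44820428, chr9:19375715-37801437, chr11:236546-842545, chr18:3247481-12344320 and chr19:867630-6393981) and in the mitochondrial genome. Genes are therefore named only there, apart from the 3 hairpin targets and the keratinocyte markers checked, which lie outside except AQP3 and TINCR. These stretches hold 1587 entries, of which 535 code for proteins and 466 were expressed highly enough to be tested. The KMT2A entry stood at 464 CPM of the total untreated and 494 with CeO2 in shControl, against 32.0 and 35.6 in shMLL1. All 3 target entries lie outside the matched stretches, where names and reads do not match reliably, so they cannot check the labels. The entries of the other 2 targets were also low. For the entry named KDM6A, shControl had 6 counts untreated and 6 with CeO2, against 1 and 1 in shUTX. The entry named NFE2L2 was counted 1 time untreated and 16 times with CeO2 in shControl. It had 0 counts in both shNRF2 libraries, which allows up to 3 counts in each. Of the keratinocyte markers in the matched stretches, AQP3, a channel for water, glycerol and peroxide, had a mean of 283 CPM and TINCR, a noncoding RNA of epidermal differentiation, 30.2 CPM. The entries named KRT5, DSG3 and ITGB4 lie outside the matched stretches and were listed at 0 in all 8 libraries. Those named KRT14, KRT10 and KRT1, also outside, had 291 to 511, 512 to 1351 and 16 to 91 counts. The entry named TP63, outside as well, had 0 to 6. Names and reads do not match reliably there, so the labelled cell type could be checked by AQP3 and TINCR only.

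Cerium at the surface of these particles switches between its Ce(III) and Ce(IV) states, which lets them take up or give off electrons and act on superoxide and peroxide. Cells take such particles up mainly by endocytosis. The main source of superoxide in most cells is the respiratory chain of the mitochondria, whose subunits are encoded partly in the nucleus and partly in the small circular mitochondrial genome. The mitochondrial genome is transcribed as long precursors from each strand that are then cut into rRNAs, mRNAs and tRNAs, so neighbouring genes on 1 strand share a precursor.

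The sequences of a pair of neighbouring mitochondrial genes, MT-ND3 and MT-ND4L, are shown because these genes stood at opposite ends of the mitochondrial genes in the control derivative. Both encode membrane subunits of complex I, both lie on the plus strand, and they are annotated with 346 and 297 bases. They are given 5′ to 3′ from the GENCODE 29 transcripts (GRCh38), MT-ND3 as its first 300 bases (chrM:10059-10358) and MT-ND4L whole (chrM:10470-10766). The capitals mark the 7 bases at the end of MT-ND4L that it shares with the following gene, MT-ND4, so that a read over them cannot be given to either gene alone.
MT-ND3: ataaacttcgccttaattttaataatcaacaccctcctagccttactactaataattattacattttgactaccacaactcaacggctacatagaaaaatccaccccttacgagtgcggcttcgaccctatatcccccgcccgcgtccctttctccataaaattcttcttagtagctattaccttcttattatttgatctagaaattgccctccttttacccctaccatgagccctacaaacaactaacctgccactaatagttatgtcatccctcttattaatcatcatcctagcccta
MT-ND4L: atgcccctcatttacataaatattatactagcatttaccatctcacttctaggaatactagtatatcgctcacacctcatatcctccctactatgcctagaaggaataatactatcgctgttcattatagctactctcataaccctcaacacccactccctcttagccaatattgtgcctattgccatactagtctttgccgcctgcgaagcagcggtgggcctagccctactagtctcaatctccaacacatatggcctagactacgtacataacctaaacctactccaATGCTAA

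Before any gene was compared, the libraries were examined for a relation between level and transcript length. The untreated shControl library stood apart. Across 354 nuclear coding genes of the matched stretches, the shortest quartile of transcripts (543 to 2238 bases) had a median log2 deviation of 0.51 above the mean of the 12 libraries in that library. The same quartile lay between -0.12 and -0.025 in 10 other libraries and at 0.16 in the untreated shMLL1 library. The longest quartile (4794 to 15633 bases) was lowest in the untreated shMLL1 library, at -0.18. The CeO2 libraries of shControl and shMLL1 had shortest-quartile medians of -0.12 and -0.041, and the H2O2 libraries of the same derivatives -0.080 and -0.037. The untreated libraries of both derivatives, which serve as their controls, thus held more reads from short transcripts than the exposed ones. Without the shControl pair, 8 of the 76 gene values recomputed under other settings turned sign and a further 29 shrank by over 1.5-fold, so the medians of all gene lists but the hypoxia one, which has 2 genes, are given below with and without that pair, and likewise the changes of several genes. The part of transcript length in any single gene's result was not tested beyond the removal of the trend described below.

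**Figure D1:**
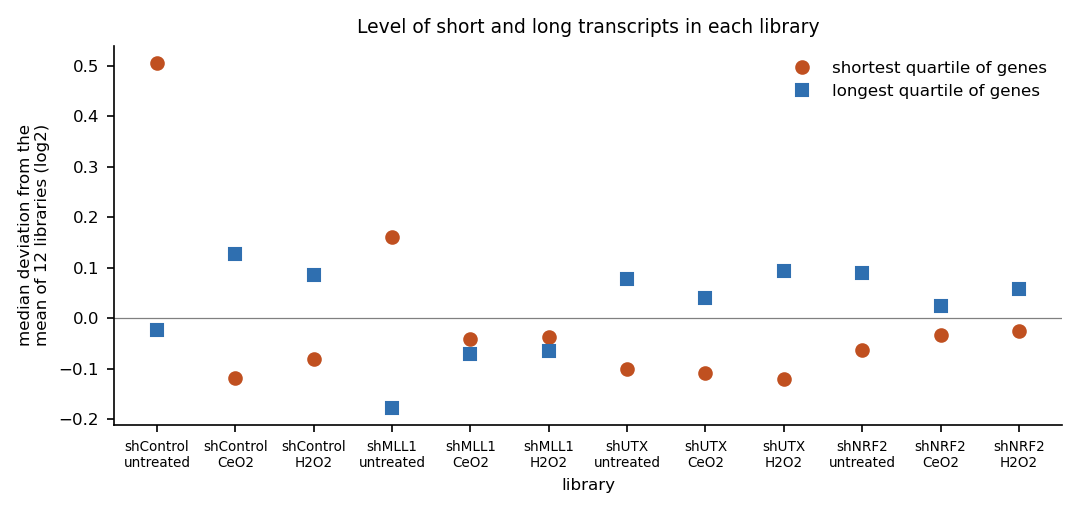
Median log2 deviation (vertical axis) of the shortest and the longest quartile of 354 nuclear coding genes from the mean of the 12 libraries, for each library (horizontal axis). The shortest quartile stands at 0.51 in the untreated shControl library and at 0.16 in the untreated shMLL1 library, and below 0 in the other 10.

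No gene changed with CeO2 by the threshold of the test (adjusted p under 0.05, edgeR quasi-likelihood test with derivative as a block). Of 10040 entries tested, 0 were called (0.0%), and 0 of the 466 matched entries (0.0%). At an unadjusted p under 0.05, 1113 of all entries (11.1%) and 47 of the matched entries (10.1%) were counted. Of the 47, 44 were lower with CeO2 (9.44% of the matched entries, against 5.75% of all entries) and 3 were higher (0.644%, against 5.34%). The 3 higher ones were PTPRS, TLN1 and TMPRSS9. When the same test was fitted to the matched entries alone, 32 had an unadjusted p under 0.05 and 18 of these were lower. The smallest adjusted p among the matched entries was 0.442. DESeq2 called 1 entry of the whole table and limma-voom 0, both with 0 in the matched stretches. Without a filter on low counts edgeR called 323 entries, 7 of them matched: MT-ND3, MT-CO3, MT-RNR1, MT-RNR2, ATP5F1D, NDUFB6 and TMPRSS9. The adjusted p therefore depends on which low entries enter the fit, and the values below are given as sizes with their errors.

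The matched genes lay below the untreated level more often than the table as a whole. The median log2 change with CeO2 was -0.10 over the 466 matched entries and -0.00050 over all 10040, and 74.7% of the matched entries were below 0 against 50.1% of all entries. In all 4 derivatives, 79 matched entries were lower (17.0%, against 12.2% of all entries) and 17 were higher (3.65%, against 10.1%). In 1 matched entry every CeO2 library lay below every untreated library (0.215%, against 0.906% of all entries). It is ENSG00000271980, an RNA antisense to CCT5 with a mean of 2.54 CPM, named after its values were seen. In 0 matched entries did every CeO2 library lie above every untreated one (0.0%, against 1.34% of all entries). Without the shControl pair the matched median was -0.041. In the fit to the matched entries alone, scaled to their own counts, it was 0.0065, so the lower level is relative to the whole table.

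The derivatives differed in how far the matched genes moved. Over the 388 matched entries with a mean of at least 5 CPM, the median log2 ratio of CeO2 to untreated (with 1 CPM added to each level) was -0.28 in shControl, -0.11 in shMLL1, 0.0029 in shUTX and -0.023 in shNRF2. The SD over these entries was 0.38, 0.21, 0.16 and 0.25. In shControl, 64 entries were lower by over 1.5-fold (16.5%) and 10 were higher (2.58%). The corresponding numbers were 2 (0.515%) and 1 (0.258%) in shMLL1, 1 (0.258%) and 1 (0.258%) in shUTX, and 2 (0.515%) and 2 (0.515%) in shNRF2. These counts were not made over the whole table, so they cannot be called particular to the matched genes. The 10 higher entries in shControl were CPLANE1, GPX4, LIFR, LMBRD2, MSNP1, OXCT1-AS1, PDZD2, SEMA5A, SLC4A1APP1 and TRIO. In shUTX the entry past this size on the high side was CA9, and in shNRF2 they were CA9 and LRRC56. CA9 reached a mean of 5 CPM through shControl, and its ratio in shUTX rests on few reads, at 2.47 (95% interval 0.616 to 14.2). Since each derivative had 1 library per treatment, whether these responses differ was not tested.

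The direction in shControl followed transcript length. The 53 nuclear coding genes that were lower by over 1.5-fold there had a median longest transcript of 1620 bases, and the 7 that were higher had a median of 11100.0 bases. The log2 change across the 4 derivatives rose with the log of transcript length across the 354 genes (Pearson r = 0.43, Spearman coefficient = 0.53). This is a relation across genes of the same libraries, which are not independent replicates, so it has no p-value. From the shortest to the longest quartile of transcripts the median log2 change was -0.18, -0.11, -0.061 and 0.029, and the numbers of genes below 0 were 80 of 89, 81 of 88, 66 of 88 and 35 of 89. Within derivatives, r was 0.58 in shControl and 0.42 in shMLL1, whereas it was 0.0046 in shUTX and -0.12 in shNRF2. In shControl the quartile medians ran from -0.58 over -0.35 and -0.17 to 0.078, and in shMLL1 from -0.16 over -0.12 and -0.080 to 0.052. In shUTX all 4 lay between -0.0085 and 0.012. Over all derivatives r was 0.14 without the shControl pair.

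GC content and mean level did not show the same relation, whereas the span of the gene on the genome had r = 0.39 with the log2 change. The log2 change had r = -0.071 with the GC content of the transcript. Within quartiles of GC content, the r with length was 0.53, 0.55, 0.53 and 0.23 from the lowest to the highest GC. The r with the mean level of the gene was -0.093. Among the 283 genes with a mean of at least 20 CPM, r with length was 0.70. A smooth trend with length was then fitted in each library to these nuclear genes and held at its end value for shorter mitochondrial ones. It was removed from the matched entries only, and the test was repeated. After that, r over the same genes was -0.015, a value near 0 that the removal itself brings about. Of the matched entries 0 were called, and 27 had an unadjusted p under 0.05 in place of 47, of which 26 were lower.

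**Figure D2:**
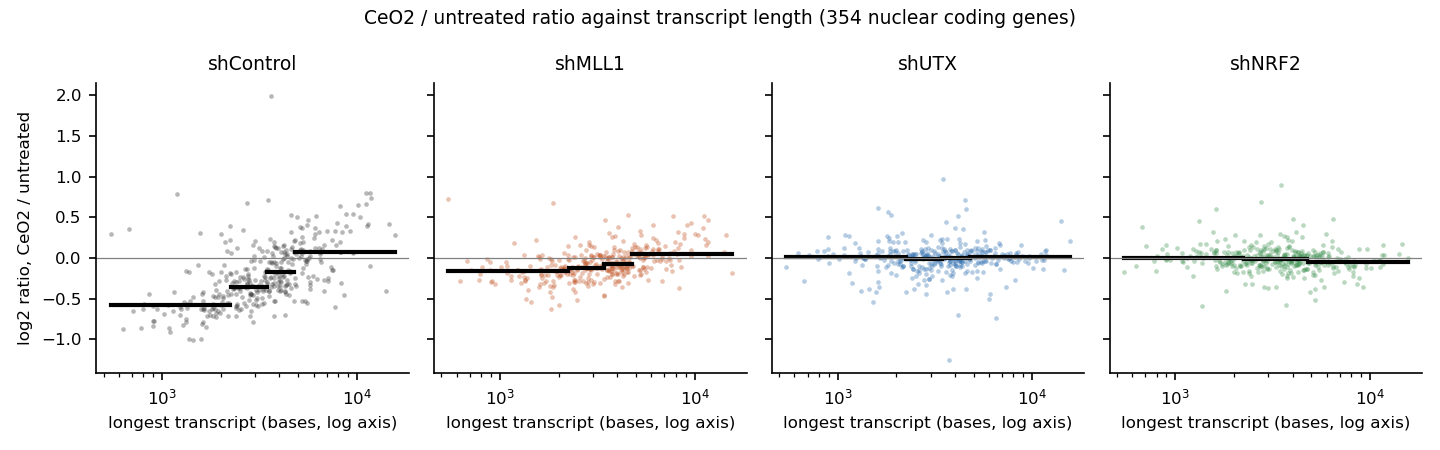
Log2 ratio of CeO2 to untreated (vertical axis) against the longest annotated transcript in bases (horizontal log axis) for 354 nuclear coding genes, with 1 panel per derivative, 1 point per gene and black bars at the median of each length quartile. The bars climb from -0.58 to 0.078 in shControl and from -0.16 to 0.052 in shMLL1, and stay near 0 in shUTX and shNRF2.

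Among the gene lists examined, the mitochondrially encoded genes had the most members at an unadjusted p under 0.05. Of the 15 protein and rRNA genes, 13 had a log2 change below 0 and 10 had an unadjusted p under 0.05, all 10 on the low side (against 9.44% of all matched entries), and 0 were called after adjustment. Their median log2 change was -0.23, beside -0.10 for all matched entries. By derivative the median log2 ratio was -0.20 in shControl, -0.35 in shMLL1, -0.025 in shUTX and -0.31 in shNRF2. The shControl value depends on the scaling, since the TMM factors of that pair were 0.914 untreated and 1.05 with CeO2. The mitochondrial genes lay below untreated in shNRF2 and near it in shUTX. Copies of mitochondrial sequence in the nuclear genome can take part of their reads. Without the shControl pair their median was -0.22, with each other pair left out it lay between -0.32 and -0.18, and with the length trend removed it was -0.13.

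MT-ND3 had the smallest p of the matched genes. Its level went from 1443 to 808 CPM in shControl, from 1270.4 to 873 in shMLL1, from 1143 to 1078 in shUTX and from 1076 to 801 in shNRF2. The untreated library was the higher one in 4 of 4 pairs, but the groups overlapped, since the CeO2 library of shUTX was as high as the untreated one of shNRF2. The log2 change was -0.47 ± 0.12 (SE), with an unadjusted p of 0.00292 and an adjusted p of 0.442 that ran from 0.000142 to 0.908 over the other settings, the lowest being the fit without a filter. It was -0.35 without the shControl pair and -0.37 after removal of the length trend. As a ratio of 2 libraries, with an exact binomial interval for counting error alone, MT-ND3 stood at 0.560 (95% interval 0.542 to 0.579) in shControl and at 0.943 (95% interval 0.911 to 0.976) in shUTX.

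MT-ND4L, the neighbour of MT-ND3 printed above, went the other way in the control derivative. Its level went from 677 to 965 CPM in shControl, from 804 to 849 in shMLL1, from 769.9 to 778 in shUTX and from 877 to 715 in shNRF2. The log2 change was 0.077 ± 0.12 over all derivatives and -0.067 without the shControl pair. MT-ND4, which overlaps the end of MT-ND4L on the same strand, had a log2 ratio of -0.022 in shControl. MT-ND5, another complex I subunit, had log2 ratios of 0.38 in shControl, -0.053 in shMLL1, -0.036 in shUTX and -0.24 in shNRF2. MT-ND4L and MT-ND5 were the 2 mitochondrial genes whose overall log2 change was not below 0, and both were below untreated in shNRF2. In shControl the log2 ratios of the mitochondrial genes thus spanned -0.84 to 0.51, although all but MT-ND6 come from the same strand. In shNRF2 they spanned -0.45 to -0.18.

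The 2 mitochondrial rRNAs were close to each other. MT-RNR2, the large subunit rRNA, went from 14122 to 10271 CPM in shControl, from 12797 to 9476 in shMLL1, from 14702 to 14199.7 in shUTX and from 12839.7 to 10787 in shNRF2, a log2 change of -0.30 ± 0.10. MT-RNR1, the small subunit rRNA, had log2 ratios of -0.59 in shControl, -0.43 in shMLL1, -0.045 in shUTX and -0.18 in shNRF2, and a log2 change of -0.31 ± 0.10. Both were lower with CeO2 in 4 of 4 derivatives, by little in shUTX. Of the complex IV subunits, MT-CO3 went from 11903 to 8820.0 CPM in shControl, from 10357 to 7686 in shMLL1, from 8212 to 7948 in shUTX and from 9141 to 7588 in shNRF2 (log2 change -0.29 ± 0.097, unadjusted p 0.0143). MT-CO2 and MT-CO1 had log2 changes of -0.23 ± 0.098 and -0.19 ± 0.091. Of the ATP synthase subunits, MT-ATP8 and MT-ATP6, which overlap each other, had -0.28 ± 0.099 and -0.23 ± 0.099. MT-CYB of complex III had -0.15 ± 0.089.

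MT-ND6 is the complex I subunit encoded on the other strand, and it was lower in the same derivatives as the rest. Its level went from 1207 to 931 CPM in shControl, from 869.6 to 665 in shMLL1, from 836 to 821 in shUTX and from 827 to 658 in shNRF2, a log2 change of -0.28 ± 0.087 (unadjusted p 0.0107). The remaining complex I genes MT-ND1, MT-ND2 and MT-ND4 had log2 changes of -0.20 ± 0.087, -0.23 ± 0.096 and -0.16 ± 0.092. In the H2O2 libraries, scaled over all 12 libraries and compared with the same untreated ones, MT-ND3 stood at 1176 in shControl, 1029.7 in shMLL1, 1149.6 in shUTX and 1065 in shNRF2 CPM, beside untreated levels of 1465, 1282, 1152 and 1076 CPM in the same order. The control derivative's untreated library was the highest of the 12 for this gene.

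The share of all counts that came from the mitochondrial genome was lower with CeO2 in 4 of 4 derivatives. It went from 9.30% to 9.15% in shControl, from 8.99% to 7.58% in shMLL1, from 8.31% to 8.20% in shUTX and from 8.91% to 7.41% in shNRF2. The mean difference was -0.79 ± 0.77 percentage points (SD, n = 4 pairs), with an exact two-sided permutation p of 0.125, the smallest that 4 pairs allow. The differences in shMLL1 and shNRF2 were about -1.41 and -1.50 points, those in shControl and shUTX -0.15 and -0.10. Measured as a share of the counts in the matched stretches, the mean difference was -2.18 points and 3 of 4 derivatives were lower (exact permutation p 0.375). For the 13 protein genes alone, as a share of all counts, it was -0.58 points, again with 3 of 4 lower (exact permutation p 0.375). In shControl that share rose, from 7.77% to 7.90%. In RNA from whole cultures, fewer mitochondrial transcripts per cell and a different mix of cells cannot be told apart.

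**Figure D3:**
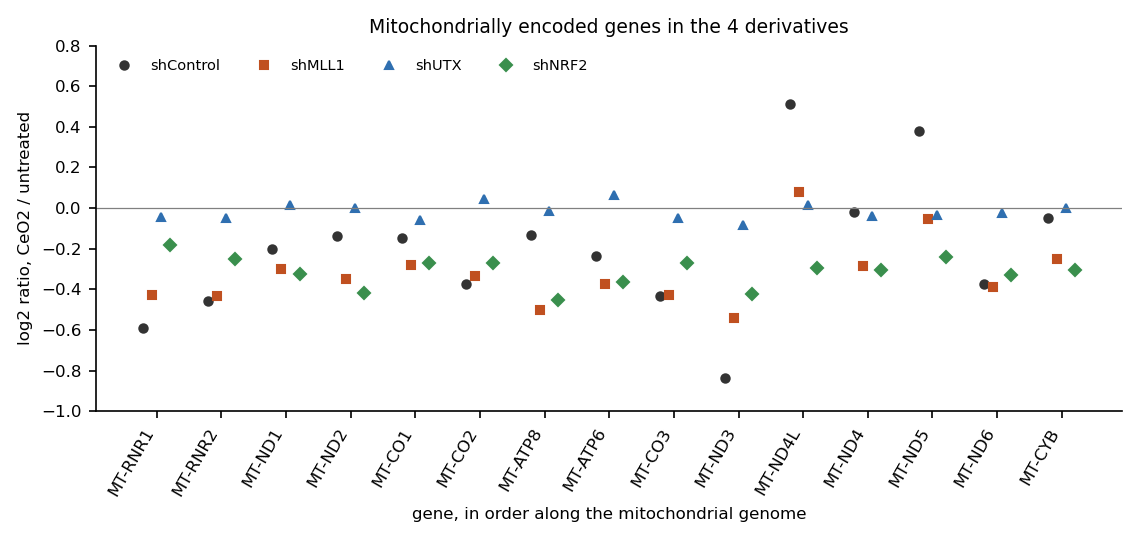
Log2 ratio of CeO2 to untreated (vertical axis) for the 15 mitochondrially encoded protein and rRNA genes, in their order along the genome (horizontal axis), with 1 symbol per derivative. The shUTX points lie near 0, the shMLL1 and shNRF2 points mostly between -0.2 and -0.5, and the shControl points spread from -0.84 for MT-ND3 to 0.51 for MT-ND4L.

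Nuclear genes of the mitochondria were lower mainly in the control derivative. At an unadjusted p under 0.05, 2 of 11 tested genes for the respiratory chain and ATP synthase were lower, against 9.44% of all matched entries. Of these 11 genes, 10 had a log2 change below 0 and 0 were called. Their median log2 change was -0.23, but by derivative it was -0.72 in shControl, -0.19 in shMLL1, 0.018 in shUTX and 0.055 in shNRF2, and without the shControl pair it was -0.039. NDUFB6, a complex I subunit that overlaps SMIM27 on the other strand, went from 207 to 103 CPM in shControl, from 164 to 115 in shMLL1, from 135 to 135 in shUTX and from 129 to 124 in shNRF2 (log2 change -0.40 ± 0.16, -0.19 without the shControl pair). ATP5F1D, the delta subunit of ATP synthase, went from 635 to 319 CPM in shControl, from 453 to 352 in shMLL1, from 331 to 309 in shUTX and from 337 to 350.3 in shNRF2 (log2 change -0.35 ± 0.15, -0.13 without the shControl pair). SDHA, the flavoprotein of complex II, had a log2 change of 0.0030 ± 0.090. In shNRF2 the nuclear and the mitochondrial subunits therefore had medians of 0.055 and -0.31 on the log2 scale, a difference that was not tested.

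Genes for the ribosomes were also mostly below 0. Of 10 genes for the mitochondrial ribosome, import and protein quality control, 10 were below 0, 1 had an unadjusted p under 0.05, and the median log2 change was -0.18 (-0.053 without the shControl pair). MRPL36, a protein of the large mitochondrial subunit, went from 189 to 122 CPM in shControl, from 141 to 123 in shMLL1, from 179.8 to 178 in shUTX and from 148 to 132 in shNRF2. Of 12 genes for the cytosolic ribosome and its assembly, 10 were below 0, 2 had an unadjusted p under 0.05, and the median was -0.21 (-0.61 in shControl, 0.012 in shUTX, and -0.060 without the shControl pair). Genes for ribosomal proteins have many pseudogenes, so their counts are uncertain. RPS6, a protein of the small subunit, went from 4419.8 to 3069.9 CPM in shControl, from 3948 to 2996 in shMLL1, from 4002 to 3972 in shUTX and from 3392 to 3383 in shNRF2. EEF2, which moves the ribosome along the mRNA, had a log2 change of 0.035 ± 0.084. In both lists 0 genes were called. Their counts at an unadjusted p under 0.05, all on the low side, stand beside 9.44% of all matched entries.

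BRIX1, a factor of large-subunit assembly, was below untreated in every derivative. Its level went from 315 to 205 CPM in shControl, from 252 to 193 in shMLL1, from 358 to 335 in shUTX and from 238 to 212 in shNRF2, a log2 change of -0.32 ± 0.099 (unadjusted p 0.0113, adjusted p 0.442, range over the other settings 0.118 to 0.908). The CeO2 library was the lower one in 4 of 4 pairs, while the groups overlapped. It lies at chr5:34915376-34925996 on the plus strand and overlaps RAD1 on the other strand, so the reads of these 2 genes cannot be told apart where they overlap. RAD1, a subunit of a DNA damage checkpoint clamp, had a log2 change of -0.095 ± 0.083. The BRIX1 value was -0.21 without the shControl pair and -0.26 after removal of the length trend.

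VAPA was low in all 4 derivatives. Its longest annotated transcript, of 6815 bases, falls in the longest quartile, and whether these cells express that transcript was not tested. VAPA (vesicle-associated membrane protein-associated protein A) is a protein of the endoplasmic reticulum that tethers it to other membranes. Its level went from 420.1 to 317 CPM in shControl, from 409 to 336 in shMLL1, from 404 to 367 in shUTX and from 327 to 293 in shNRF2. The log2 change was -0.25 ± 0.078 (unadjusted p 0.0118, adjusted p 0.442, range over the other settings 0.191 to 0.908). It was -0.19 without the shControl pair and -0.35 after removal of the length trend, which uses the longest annotated transcript. The gene lies at chr18:9914002-9960021.

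The other nuclear genes among the 12 named for the smallest p, all low in all 4 derivatives, had log2 changes between -0.37 and -0.22. MEX3D, an RNA-binding protein, went from 179.7 to 132 CPM in shControl, from 176 to 138 in shMLL1, from 230.2 to 200.5 in shUTX and from 133 to 124 in shNRF2 (log2 change -0.27 ± 0.085). PAIP1, which binds the poly(A)-binding protein in translation, had log2 ratios of -0.52 in shControl, -0.31 in shMLL1, -0.14 in shUTX and -0.10 in shNRF2. BASP1, a membrane-attached protein known from nerve growth cones, had -0.40 in shControl, -0.36 in shMLL1, -0.18 in shUTX and -0.059 in shNRF2. FASTKD3, a mitochondrial RNA-binding protein, had the most even ratios of the group, -0.17 in shControl, -0.28 in shMLL1, -0.24 in shUTX and -0.18 in shNRF2. It overlaps MTRR on the other strand, which had a log2 change of -0.0091 ± 0.074. MIR31HG, the host RNA of the microRNA miR-31, went from 28.8 to 20.1 CPM in shControl, from 22.2 to 17.4 in shMLL1, from 15.0 to 13.8 in shUTX and from 25.6 to 19.0 in shNRF2. All had an adjusted p of 0.442.

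Genes above the untreated level in all 4 derivatives had long transcripts more often than short ones. Among nuclear coding genes they numbered 0, 0, 4 and 10 from the shortest to the longest length quartile, and those below it in all 4 numbered 14, 17, 17 and 10. PTPRS, a receptor tyrosine phosphatase that binds proteoglycans, went from 495 to 616 CPM in shControl, from 289 to 336 in shMLL1, from 109 to 111 in shUTX and from 578 to 667 in shNRF2. Its log2 change was 0.20 ± 0.078 (unadjusted p 0.0343, adjusted p 0.442), and 0.11 after removal of the length trend. TLN1 encodes talin, which links integrins to actin, and it went from 837 to 1103 CPM in shControl, from 931 to 1099 in shMLL1, from 751 to 765 in shUTX and from 919 to 994 in shNRF2 (log2 change 0.19 ± 0.085). After removal of the length trend it was 0.054. SEMA5A, a semaphorin with a transcript of 11762 bases, went from 161 to 269 CPM in shControl, from 31.5 to 36.4 in shMLL1, from 85.5 to 91.8 in shUTX and from 216 to 220.3 in shNRF2 (log2 change 0.28 ± 0.12). TLN1 overlaps CREB3, and SEMA5A overlaps SEMA5A-AS1, on the other strand. The SEMA5A difference was greatest in the shControl pair, without which it was 0.10.

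The other 9 named genes above 0 had larger p-values. RUSC2, known as a partner of the small GTPase Rab1, had log2 ratios of 0.47 in shControl, 0.16 in shMLL1, 0.32 in shUTX and 0.028 in shNRF2. ANKRD18B, an ankyrin-repeat gene, had 0.15 in shControl, 0.26 in shMLL1, 0.11 in shUTX and 0.22 in shNRF2. KDM4B, a histone H3 lysine 9 demethylase, had a log2 change of 0.13 ± 0.082. UHRF1, which keeps DNA methylation through replication, had 0.084 ± 0.075. SLC12A7, a potassium chloride cotransporter, had 0.13 ± 0.079. PIP5K1C, a lipid kinase that makes phosphatidylinositol bisphosphate, had 0.11 ± 0.072, and ABCA7, a lipid transporter, 0.11 ± 0.082. MTCL1, a protein that crosslinks microtubules, had 0.21 ± 0.13, and the noncoding entry ENSG00000248994 had 0.27 ± 0.17. Their unadjusted p ran from 0.0634 to 0.292.

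TMPRSS9, a serine protease of the cell membrane with few reads, had the highest log2 change of the matched entries. Its level went from 3.25 to 5.97 CPM in shControl, from 2.29 to 3.56 in shMLL1, from 0.951 to 2.81 in shUTX and from 1.98 to 4.54 in shNRF2. CeO2 was the higher library in 4 of 4 pairs, and the log2 change of the fit was 1.00 ± 0.25 (unadjusted p 0.00341, adjusted p 0.442). Its mean of 3.17 CPM was under the level set for named genes, so it is given here as a member of the matrix and protease list. It overlaps TIMM13, a mitochondrial import gene on the other strand that stood at 287 CPM and had a log2 change of -0.20 ± 0.12. The H2O2 libraries stood at 5.50 in shControl, 3.91 in shMLL1, 3.88 in shUTX and 6.29 in shNRF2 CPM for TMPRSS9, also above the untreated libraries they share with CeO2, which stood at 3.30, 2.31, 0.958 and 1.98 CPM.

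**Figure D4:**
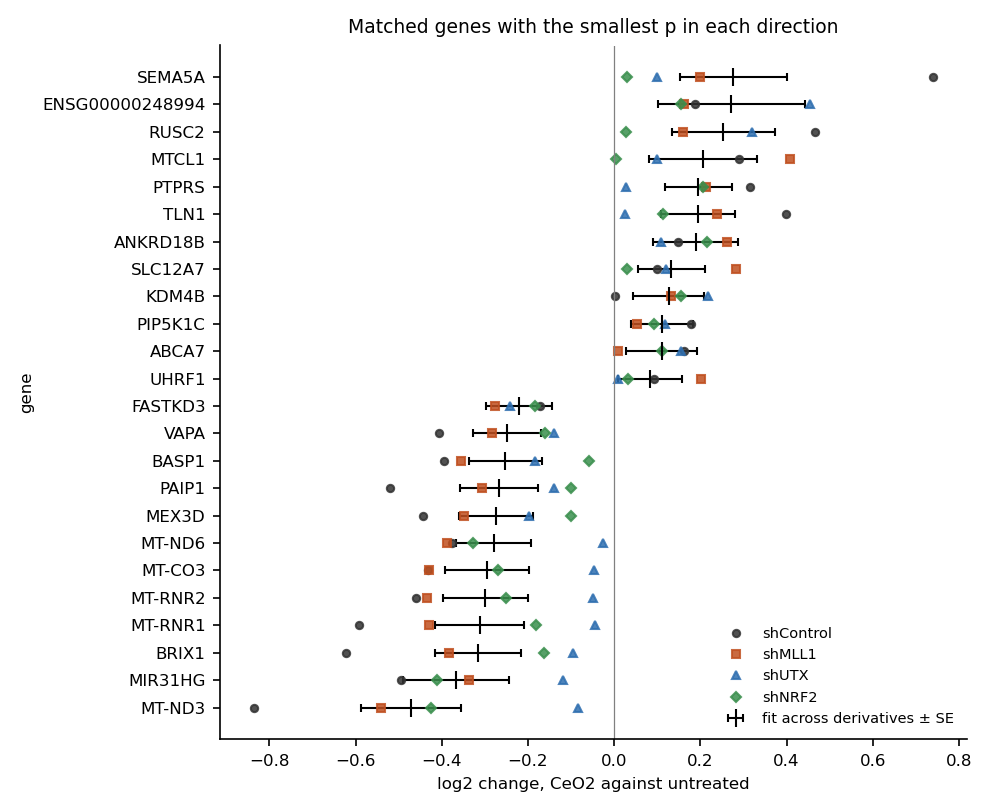
Log2 change with CeO2 (horizontal axis) of the 24 matched genes with a mean of at least 5 CPM, the same sign in all 4 derivatives and the smallest p in each direction (vertical axis), as the ratio in each derivative (symbols) and the fitted change ± SE (bars). The shControl symbol is often the farthest from 0, as for SEMA5A at 0.74 and MT-ND3 at -0.84.

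Genes for peroxide, glutathione, selenium and iron handling were near the median of all matched genes. Of 8 tested, 7 were below 0, 0 had an unadjusted p under 0.05, and the median log2 change was -0.075 (-0.034 without the shControl pair). GPX4, the selenoenzyme that reduces lipid peroxides, was the member above 0. It went from 662 to 1139 CPM in shControl, from 597 to 679.9 in shMLL1, from 797 to 641 in shUTX and from 475 to 481 in shNRF2, a log2 change of 0.17 ± 0.15 (adjusted p 0.610, range over the other settings 0.372 to 0.944). In shControl it was higher by a ratio of 1.72 (95% interval 1.66 to 1.79), where the shortest length quartile had a median log2 ratio of -0.58, and in shUTX it was lower. Without the shControl pair the log2 change was -0.034. In the H2O2 libraries GPX4 stood at 1058 in shControl, 817 in shMLL1, 765 in shUTX and 608 in shNRF2 CPM, beside untreated levels of 672, 602, 803 and 475.

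The other members of that list had lower values. TALDO1, an enzyme of the pentose phosphate pathway that supplies NADPH, went from 1785 to 1165 CPM in shControl, from 1523 to 1256 in shMLL1, from 1322 to 1327 in shUTX and from 1110.0 to 1122 in shNRF2. NUDT2, which cleaves dinucleoside polyphosphates, had log2 ratios of -0.58 in shControl, -0.052 in shMLL1, 0.13 in shUTX and -0.034 in shNRF2. AQP3 went from 291 to 212 CPM in shControl, from 275 to 249.7 in shMLL1, from 221 to 239 in shUTX and from 371 to 403 in shNRF2, lower in 2 derivatives and higher in the other 2. NNT, the mitochondrial enzyme that couples NADH to NADPH, had a log2 change of -0.0064 ± 0.076, and ACO1, the cytosolic aconitase that senses iron, -0.061 ± 0.077. The core of the antioxidant response element, the site of NRF2, was searched as TGACNNNGC on both strands in the 250 bases before each start site in the RefSeq promoter table (GRCh38.p14), with no other motif searched. Counting a gene once if any of its promoters held the motif, it was found in 13.2% of 27305 genes of the table, which include noncoding ones, and in 52 of the 306 matched coding genes tested that have a promoter there (17.0%). Of single promoters, 10.9% of 35116 held it. The median log2 change was -0.073 with the motif and -0.091 without it.

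Genes for endocytosis, vesicle traffic and the lysosome, the route by which particles enter cells, were on both sides of 0. Of 24 tested, 17 were below 0, and the median was -0.069 (-0.031 without the shControl pair). At an unadjusted p under 0.05, 2 of the 24 were lower, against 9.44% of all matched entries. Those 2 were VAPA and CLTA, the clathrin light chain A, which went from 715 to 433 CPM in shControl, from 645 to 511 in shMLL1, from 655 to 639.9 in shUTX and from 466 to 461 in shNRF2. The log2 change of CLTA was -0.13 without the shControl pair, and it overlaps GNE on the other strand. TRIO, with a transcript of 11100 bases, went from 472 to 817 CPM in shControl, from 301 to 389 in shMLL1, from 663 to 683 in shUTX and from 475 to 464 in shNRF2 (log2 change 0.29 ± 0.13). It was 0.12 without the shControl pair and 0.11 after removal of the length trend. GOLPH3, a Golgi protein that binds phosphoinositides, had log2 ratios of -0.33 in shControl, -0.14 in shMLL1, -0.11 in shUTX and -0.092 in shNRF2, below 0 in each derivative. AP3D1, an adaptor subunit of lysosomal traffic, had 0.018 ± 0.071.

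Of 17 genes for the proteasome, ubiquitin and chaperones, 12 were below 0, and the median was -0.093 (-0.035 without the shControl pair). At an unadjusted p under 0.05, 2 of the 17 were lower, against 9.44% of all matched entries. UBE2R2, a ubiquitin-conjugating enzyme, had log2 ratios of -0.39 in shControl, -0.28 in shMLL1, -0.097 in shUTX and -0.10 in shNRF2. SKP2, the substrate receptor of an SCF ubiquitin ligase, had -0.25 in shControl, -0.12 in shMLL1, -0.092 in shUTX and -0.22 in shNRF2. DNAJA1, a co-chaperone of HSP70, went from 1275 to 933 CPM in shControl, from 1519 to 1309 in shMLL1, from 1707 to 1632 in shUTX and from 1143 to 1149 in shNRF2. Of 19 genes for mitosis, replication and DNA repair, 14 were below 0, and the median was -0.10 (-0.044 without the shControl pair). SKP2, also in this list, was the 1 gene lower at an unadjusted p under 0.05, against 9.44% of all matched entries. FANCG, of the Fanconi anaemia core complex, had log2 ratios of -0.26 in shControl, -0.11 in shMLL1, -0.15 in shUTX and -0.12 in shNRF2. TRIP13, an ATPase of the spindle checkpoint, had a log2 change of -0.19 ± 0.087.

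Of 28 genes for stress, kinase and cytokine signalling, 23 were below 0, 0 had an unadjusted p under 0.05, and the median was -0.096 (-0.36 in shControl, 0.026 in shUTX, and -0.018 without the shControl pair). SIGIRR, an inhibitor of interleukin-1 and Toll-like receptor signalling, had a log2 change of -0.24 ± 0.12, and MAP2K2, the kinase that activates ERK, -0.19 ± 0.11, which were -0.11 and -0.066 without the shControl pair. The interferon-induced membrane proteins IFITM1, IFITM2 and IFITM3 had log2 changes of -0.070 ± 0.10, -0.11 ± 0.13 and -0.16 ± 0.11. These 3 genes are close paralogs, so reads may be split between them. GADD45B, a stress-induced gene of growth arrest, went from 97.0 to 64.7 CPM in shControl, from 64.5 to 63.4 in shMLL1, from 54.2 to 65.5 in shUTX and from 86.7 to 87.8 in shNRF2.

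Of 9 epidermal keratinocyte and junction genes, 7 were below 0, 1 had an unadjusted p under 0.05 on each side (TLN1 higher, MYL12A lower), and the median was -0.12 (-0.0027 without the shControl pair). PKP3, plakophilin of the desmosome, went from 2538 to 1850.0 CPM in shControl, from 1899 to 1746 in shMLL1, from 1601 to 1629 in shUTX and from 1976 to 2096 in shNRF2. MYL12A, a regulatory light chain of myosin, had log2 ratios of -0.70 in shControl, -0.15 in shMLL1, -0.032 in shUTX and -0.22 in shNRF2, and its close paralog MYL12B had -0.63 in shControl, -0.23 in shMLL1, 0.00100 in shUTX and -0.033 in shNRF2. TINCR went from 6.97 to 5.42 CPM in shControl, from 23.2 to 20.6 in shMLL1, from 29.8 to 28.8 in shUTX and from 65.9 to 61.0 in shNRF2, below untreated in 4 of 4 pairs with a log2 change of -0.15 ± 0.11. The level of TINCR differed far more between derivatives than with CeO2. Of 13 lipid and sterol genes, 8 were below 0, 0 had an unadjusted p under 0.05, and the median was -0.043 (-0.028 without the shControl pair). HMGCS1, an early enzyme of cholesterol synthesis, had a log2 change of -0.043 ± 0.076.

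Of 8 matrix and protease genes, 4 were below and 4 above 0, 2 had an unadjusted p under 0.05 on the high side (TMPRSS9 and PTPRS) and 1 on the low side (BASP1), and the median was 0.053 (0.051 without the shControl pair and -0.010 with the length trend removed). ADAMTS12, a secreted metalloprotease, went from 153 to 222 CPM in shControl, from 30.8 to 37.8 in shMLL1, from 198 to 222 in shUTX and from 133 to 112 in shNRF2, above untreated in 3 of 4 pairs. The 2 hypoxia genes tested had opposite signs between derivatives. CA9, the carbonic anhydrase induced by HIF-1, went from 59.2 to 40.7 CPM in shControl, from 2.72 to 2.23 in shMLL1, from 0.570 to 1.41 in shUTX and from 3.82 to 6.30 in shNRF2, and its log2 change of -0.043 ± 0.27 was 0.45 without the shControl pair. MIR210HG, the host RNA of the hypoxia microRNA miR-210, had log2 ratios of -0.57 in shControl, -0.39 in shMLL1, 0.086 in shUTX and 0.079 in shNRF2. CA9 overlaps ARHGEF39 on the other strand, and outside shControl it had few reads.

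Most markers of other cell types were at or near 0. Of 15 listed, 4 were expressed highly enough to be tested, 3 of them below 0 and 1 above, with a median of -0.043 (-0.076 without the shControl pair). CCL19 and CCL21 of lymphoid stroma and CDH9, a neuronal cadherin, had 0 counts in all 8 libraries, and the endothelial receptor TEK had 1 count in all. PAX5 of B cells had 1 to 5 counts per library. SLC1A3, a glutamate transporter of glia, had a mean of 812 CPM and a log2 change of 0.0047 ± 0.076. IL7R, the interleukin-7 receptor of lymphocytes, had 448 CPM and -0.051 ± 0.080, and GNA15, a G protein subunit of blood cells, 319 CPM and -0.035 ± 0.083. Over the 14 lists the counts are to be read beside the 348 of 466 matched entries below 0. Counts at an unadjusted p under 0.05 are to be read beside 9.44% lower and 0.644% higher of all matched entries. Relative to the matched median of -0.10, the medians of the peroxide, endocytosis, proteasome, stress, lipid, matrix and other cell type lists lay above it and those of the other lists below it. Genes may belong to more than 1 list.

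**Figure D5:**
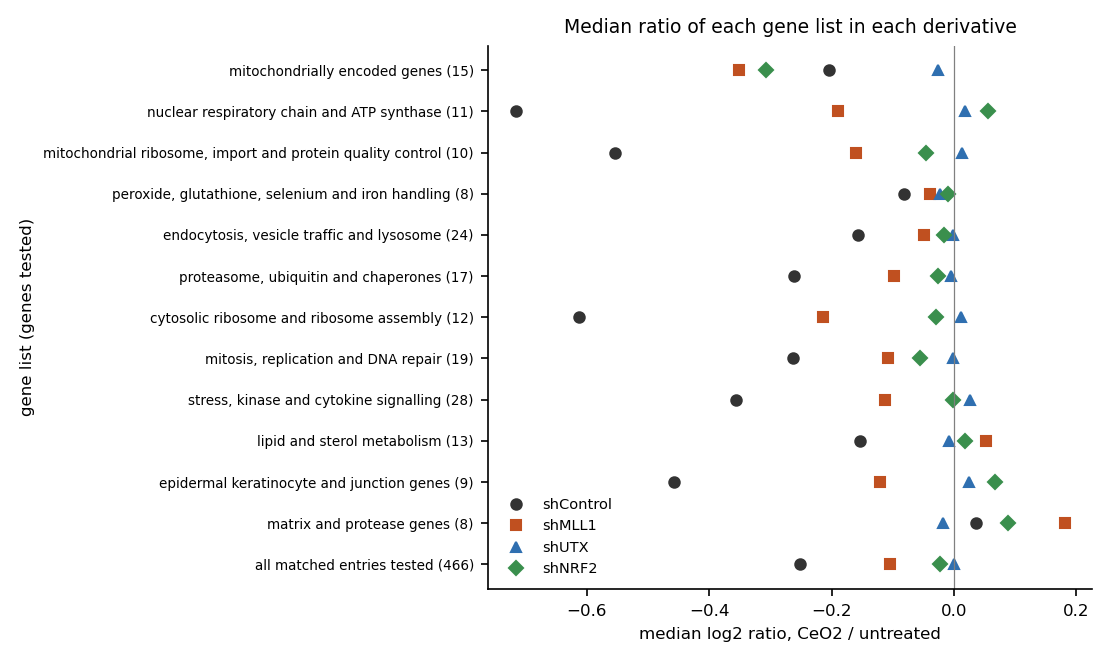
Median log2 ratio of CeO2 to untreated (horizontal axis) of each list with at least 8 genes tested and of all 466 matched entries (vertical axis, with the number of genes), with 1 symbol per derivative. The shControl medians reach -0.72 for the nuclear respiratory genes and -0.61 for the cytosolic ribosome, while in shNRF2 the mitochondrially encoded genes stand at -0.31.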

How the data were processed

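Per the labels' protocols, total RNA was made into libraries with a TruSeq RNA-seq kit. The authors deposited whole read counts per Ensembl gene on GRCh38, and the submitters' processing notes name HTSeq 0.11.1, HISAT2 2.2.1, Trimmomatic 0.39 and SAMtools 1.12. Neither the annotation nor the strand setting of the counting is stated in the labels used, so overlapping genes are uncertain. Names, positions and longest transcripts were taken from GENCODE 29, which held 58298 of the 61498 entries.

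Entries reaching 1 CPM in 4 or more of the 8 libraries were tested with edgeR 4.0.16 (quasi-likelihood, two-sided, TMM, derivative as a block, 3 residual degrees of freedom), with Benjamini-Hochberg adjustment over all 10040. Standard errors (SE) come from that fit. Pairs share a derivative, and deviations of a derivative's 2 libraries from their group means correlated by 0.31 to 0.65 over entries. Named genes were matched entries whose mean reached 5 CPM and whose sign was equal in the 4 derivatives, up to 12 of the smallest p in each direction, all mitochondrial protein and rRNA genes, and up to 4 members per list by p; other list members are named as examples after their values were seen. The members, lists and stretches were chosen with earlier results of these data known. Within derivatives, ratios have exact conditional binomial intervals (95%), which cover counting error only. The scripts were tested on simulated data, drawn with no difference between derivatives. There 39% of planted 1.5-fold changes and 90% of planted 2-fold changes were called, with 11 false calls. Other settings were all 12 libraries, no replicate block, RLE and upper-quartile scaling, no filter, a filter at 5 CPM, DESeq2 1.42.0, limma-voom (limma 3.58.1), each pair left out, and a loess trend with length removed; fits to the matched entries alone, centring on their median and GC content were added after seeing the data.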

Additional observations from a re-analysis of the deposited data

Results flagged for a closer look

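In 4 of the 76 genes examined, 1 derivative lay far from the other 3, a criterion that chance meets in about 1 in 20 groups. Both ENSG00000248994 and MT-ND6 were set apart by shUTX. The log2 ratio of ENSG00000248994 was 0.4542 there and 0.16 to 0.19 in the others, at under 12 CPM in every library. For MT-ND6 it was -0.02542 in shUTX and -0.39 to -0.33 in the other derivatives. The other 2 genes were set apart by shControl, with longest transcripts of 2133 bases (GNA15) and 4331 bases (MRPS30). The untreated shControl library held more reads from short transcripts, and whether this bears on either gene was not tested. GNA15 had -0.2669 in shControl against 0.011 to 0.062 in the others, and MRPS30, a protein of the mitochondrial ribosome, had -0.439 against -0.095 to -0.055.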

How the results depend on the processing

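The number of entries called was 0 in the whole table except under 3 settings. It was 323 without a filter, 1 with DESeq2 and, with a pair left out, between 0 and 3 (3 without the shControl pair). The entries called with DESeq2 and without the shControl pair lie outside the matched stretches and are not named. In the matched stretches it was 7 without a filter, with log2 changes of -0.47 for MT-ND3, -0.29 for MT-CO3, -0.31 for MT-RNR1, -0.29 for MT-RNR2, -0.34 for ATP5F1D, -0.39 for NDUFB6 and 1.00 for TMPRSS9, and 0 under all other settings tried, leave-one-out fits included. The cause was not tested. The fit with no replicate block called 0 entries and had 363 with an unadjusted p under 0.05, against 1113 with the block, and 8 against 47 in the matched stretches.

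Some uncalled log2 changes turned sign. With each pair left out in turn the range was -0.067 to 0.20 for MT-ND4L, -0.11 to 0.096 for MT-ND5, -0.16 to 0.033 for AQP3, -0.068 to 0.044 for GNA15, -0.034 to 0.34 for GPX4, -0.22 to 0.012 for NUDT2, -0.040 to 0.037 for SLC1A3 and -0.32 to 0.45 for CA9. The sign turned without the shControl pair, and for CA9 also without the shMLL1 pair (0.041). With the length trend removed it turned for CA9 (0.11), GNA15 (0.036) and SLC1A3 (-0.024), with DESeq2 for CA9 (0.060), and with no replicate block for SLC1A3 (-0.00049). In the fit to the matched entries alone it turned for AQP3 (0.014), CA9 (0.099), GNA15 (0.070), IL7R (0.055) and OXCT1 (0.0061). The other 1035 values of single genes under these settings kept their sign and their side of the threshold.

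Of the list medians, peroxide and glutathione handling ran from -0.11 to -0.034 with a pair left out. Centred on the matched median of -0.10, it was 0.026, endocytosis 0.032, lipid genes 0.058, matrix genes 0.15 and other cell type markers 0.058, and proteasome (0.0081) and stress genes (0.0047) also turned sign, so that of the medians the matrix one was above 0 on both scales. Matrix genes were at -0.065 with a filter at 5 CPM, -0.010 with the length trend removed and 0.00033 without the shNRF2 pair. The hypoxia median ran from -0.39 to 0.19 with a pair left out. The mitochondrial share differed by -2.18 points as a share of matched counts. The trend by GC content in place of length had r = -0.071, and by genomic span 0.39. With 1 library per derivative and treatment, no difference between derivatives could be tested.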
